A study of Mus musculus with 5 samples.

Results

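DNA methylation of mouse embryonic stem (ES) cells that lack Ring1B was compared with that of WT ES cells by reduced representation bisulfite sequencing (RRBS), in which MspI cuts DNA at CCGG and bisulfite turns unmethylated cytosines into thymines. The CpG reads of each library were summed in 1-kb windows of build mm9, without the CpGs inside CCGG, and a window was kept with at least 5 CpGs and 30 reads in each of the 2 libraries. This left 8723 windows of the 115091 with any such CpG in any of the 5 libraries of the series. Ring1B -/- alone passed in 8728 windows and WT alone in 21991, so the Ring1B -/- library set which windows could be compared. The WT cells carried the strain label C57BL/6J and were grown in serum with leukemia inhibitory factor on feeder cells, which were removed, and harvested at passage 17. The Fbxl10 T/T cells had the same labels, and what the T allele is was not given in the sources used here. Ring1B -/-, Eed -/- and Ezh2 -/- cells were labelled as grown in serum with leukemia inhibitory factor, with no label for strain, passage or feeder cells. Each genotype was 1 library, and whether a line was 1 clone was not given in the sources used here. A difference between Ring1B -/- and WT and a difference in strain, passage or culture therefore cannot be told apart. No value below has a replicate check.

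Ring1B, encoded by Rnf2, is a catalytic subunit of Polycomb repressive complex 1 (PRC1), which attaches ubiquitin to histone H2A at CpG islands of silent developmental genes. Eed and Ezh2 belong to Polycomb repressive complex 2 (PRC2), which methylates histone H3 at the same islands, and FBXL10 (KDM2B) binds unmethylated CpG-rich DNA and brings a form of PRC1 to it. In ES cells these islands are kept almost free of DNA methylation. Set beside WT, the Ring1B -/- library bears on whether such islands gain DNA methylation when Ring1B is absent. The genotype label names no change in its paralog Ring1, so it does not say that PRC1 activity was lost.

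The sequences below show where the largest differences, and 1 Polycomb gene that was not called, were read. They run 5′ to 3′ with the CpGs in capitals. The first 5 were spelled out from the sequence contexts in the deposited tables, on the + strand, and are the stretch of each window with the most Ring1B -/- reads. The last 3 are the 250 bases before the start of the gene, from the RefSeq promoter table of GRCm38.p6, on the strand of the gene, and their mm9 positions come from an exact match to the letters in the tables. Levels here and below, unless stated otherwise, are percentages of reads that kept a cytosine after the non-CpG level of the library was subtracted. A window with no such read therefore has a level just below 0.
Chromosome 5, window of the largest rise, chr5:144016457-144016499: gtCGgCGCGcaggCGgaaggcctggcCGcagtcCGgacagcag
Chromosome 5, adjoining window, chr5:144015651-144015680: aagggcCGctCGccCGtgtgCGtgCGcCGg
Chromosome 2, a window that rose, chr2:61649848-61649916: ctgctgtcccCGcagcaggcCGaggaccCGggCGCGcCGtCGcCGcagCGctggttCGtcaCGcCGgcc
Chromosome 12, a window that rose, chr12:72419302-72419356: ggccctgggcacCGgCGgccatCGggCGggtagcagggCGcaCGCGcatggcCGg
Chromosome 2, window of the largest fall, chr2:170353825-170353863: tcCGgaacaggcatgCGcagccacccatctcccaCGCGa
Qrfprl, + strand, chr6:65331038-65331287: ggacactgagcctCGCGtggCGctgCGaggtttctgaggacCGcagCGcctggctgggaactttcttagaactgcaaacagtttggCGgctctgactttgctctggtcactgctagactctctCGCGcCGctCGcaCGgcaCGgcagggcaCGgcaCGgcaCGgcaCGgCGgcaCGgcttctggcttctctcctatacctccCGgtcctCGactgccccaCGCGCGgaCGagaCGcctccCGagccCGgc
Clcn4, - strand, chr7:7252269-7252518: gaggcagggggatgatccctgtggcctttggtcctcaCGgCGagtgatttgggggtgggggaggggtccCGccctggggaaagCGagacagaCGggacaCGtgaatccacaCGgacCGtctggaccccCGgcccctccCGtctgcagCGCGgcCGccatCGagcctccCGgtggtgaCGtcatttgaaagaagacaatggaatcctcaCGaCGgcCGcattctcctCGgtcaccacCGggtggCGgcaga
Nkx6-1, - strand, chr5:102093731-102093980: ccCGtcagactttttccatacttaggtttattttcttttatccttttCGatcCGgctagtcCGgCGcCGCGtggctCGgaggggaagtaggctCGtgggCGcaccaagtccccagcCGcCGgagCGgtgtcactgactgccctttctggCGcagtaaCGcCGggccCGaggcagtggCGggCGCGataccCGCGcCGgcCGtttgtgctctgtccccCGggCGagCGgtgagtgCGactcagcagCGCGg

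Within the first stretch, 30 of 40 CpG reads kept a cytosine in Ring1B -/- against 39 of 468 in WT, and none of 24 did in Eed -/-. In the adjoining stretch it was 25 of 50 against 5 of 449. The chromosome 2 stretch that rose had 35 of 53 against 11 of 559, and the chromosome 12 stretch 25 of 36 against 59 of 416. The stretch that fell held 10 of 31 in Ring1B -/- and 152 of 167 in WT. Before the start of Qrfprl, 25 of 39 reads kept a cytosine in Ring1B -/- and 10 of 295 in WT. Before the start of Clcn4, an exchanger of chloride and protons, it was 200 of 411 against 17 of 1539. Before the start of Nkx6-1, a homeobox gene and Polycomb target, 1 of 97 reads did in Ring1B -/- and 29 of 1511 in WT.

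The Ring1B -/- library was much shallower than WT, with 1856964 CpG reads against 42999787, where a read is counted at each CpG it covers. The compared windows held a median of 64 reads over 15 CpGs in Ring1B -/- and 1452 reads over 27 CpGs in WT. Non-CpG cytosines, which measure incomplete conversion together with any true non-CpG methylation, read 2.62% in Ring1B -/-, 1.02% in WT, 2.83% in Eed -/-, 2.10% in Ezh2 -/- and 0.688% in Fbxl10 T/T. In WT the level was 1.85% where C was followed by A and 0.718% where it was followed by C, while in Ring1B -/- the 2 values were 2.41% and 2.72%. At the start of Rnf2, the targeted gene, 181 CpG reads were found in Ring1B -/- within 2 kb. The position of the deletion was not given in the sources used here, so these reads check nothing about it. Chromosome 8 held 1.52 times its WT share of reads in Ring1B -/- and 1.43 times in Eed -/-. Promoter methylation of pluripotency genes is given below, but it could not serve as a check of the cell type.

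Most CpG-rich windows had about the same low methylation in Ring1B -/- and in WT. The summed level was 1.71% in Ring1B -/- (95% Wilson interval 1.66 to 1.76%) and 1.78% in WT (1.771 to 1.787%), a difference of -0.0696 points (-0.117 to -0.0215). These intervals cover counting error only and take CpGs on 1 read as independent, so they are too narrow. The sign of this difference rests on the background: before subtraction, Ring1B -/- read 4.28% and WT 2.78%. The median window differed by -1.30 points, and 7148 of 8723 windows (81.9%) were within 5 points of WT.

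A small set of windows nevertheless differed strongly, and rises outnumbered falls. A window was called when its 2 levels lay 20 points or more apart and its p stayed under 0.05 after Benjamini-Hochberg adjustment over all 8723 windows (two-sided Fisher's exact test of the summed reads). That p compares the reads of 2 libraries, not 2 genotypes, and is too small because reads share fragments. It also uses reads before background subtraction, with a background of 2.62% in Ring1B -/- and 1.02% in WT. At an unadjusted p under 0.05 with no minimum size, 1887 windows were higher in Ring1B -/- and 270 lower. The part of background in the p-values of small differences was not tested. By this measure 109 windows were higher in Ring1B -/- (1.25% of those tested) and 50 were lower (0.573%). Just inside the threshold stood differences of 20.1, 20.2 and 20.6 points, and just outside it 19.9, 19.8 and 19.7. With CpGs inside CCGG kept, 437 of 13055 windows were higher and 312 lower, a split nearer to even. Before background subtraction, those CpGs read 36.4% in Ring1B -/- and 23.3% in WT over the same 8723 windows. Their part in these counts was not tested. With 60 reads required, 35 of 4786 windows were higher and 12 lower.

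**Figure D1:**
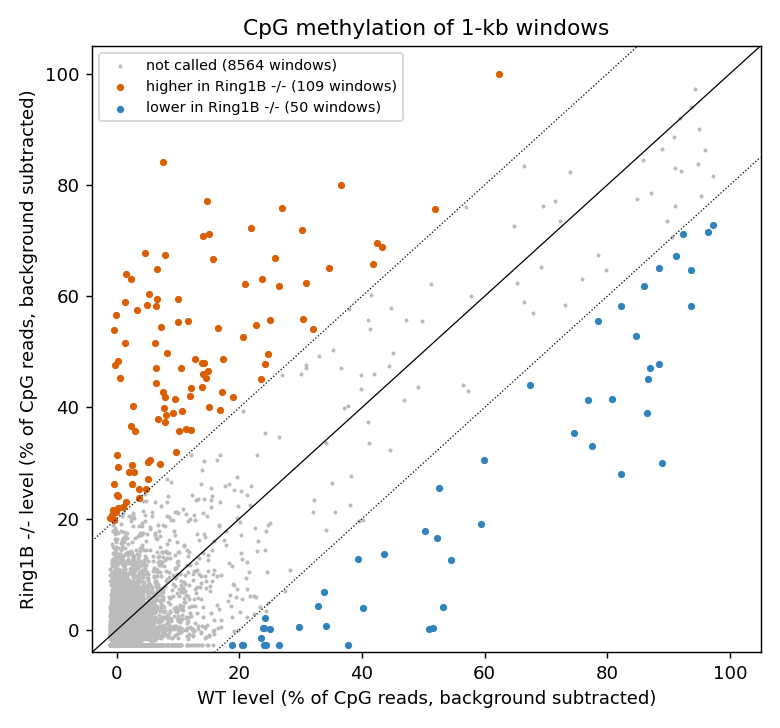
Each point is 1 window, with its background-subtracted WT level on the x axis and its Ring1B -/- level on the y axis, both in percent of CpG reads. The solid line marks equal levels and the dotted lines a difference of 20 points. Most of the 8723 points lie in the lower left corner, the 109 windows called higher lie mainly above low WT levels, and the 50 called lower lie below intermediate or high WT levels.

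The windows that rose went from a median of 8.04% in WT to 47.2% in Ring1B -/-. Their median was 6.86% in Eed -/- (90 windows with enough reads), 6.96% in Ezh2 -/- (82 windows) and 60.8% in Fbxl10 T/T. The call fixes the order of Ring1B -/- and WT, but not the other levels. Fbxl10 T/T was at 30% or more in 79 of the 109 and under 10% in 27, while 8 of those measured were above 30% in each PRC2 mutant. Over all 8723 windows, Fbxl10 T/T was at 30% or more in 1834 and under 10% in 6467. Above 30% over all windows with enough reads were 58 of 7853 in Eed -/- and 57 of 7444 in Ezh2 -/-. Of the 109, 61 were under 10% in WT, and these were 0.734% of the 8308 windows in that class. The other rises were 37 of 294 windows at 10 to 30% and 11 of 75 at 30 to 70%. Classes cut by the WT level share its counting error, whereas classes cut by the summed Eed -/- and Ezh2 -/- reads do not use either library. By the latter, 65 of 8342 windows under 10% rose (0.779%) and 32 of 243 at 10 to 30% (13.2%). At 30 to 70% it was 9 of 54 (16.7%), and at 70% or more 1 of 27 (3.7%).

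Of the 12 largest rises, 2 adjoined each other and 2 lay at placed gene starts, those of Qrfprl and Gmds. The window chr5:144016001-144017000, 14.7 kb from the nearest placed start, that of the zinc-finger gene Zfp316, was at 7.62% in WT (1881 reads) and 84.2% in Ring1B -/- (91 reads). It stood at 4.62% in Eed -/-, 6.79% in Ezh2 -/- and 83.4% in Fbxl10 T/T. All 17 of its CpGs read in Ring1B -/- were at 50% or more there, and Fisher's exact test gave an adjusted p of 5.60e-58. The neighbour chr5:144015001-144016000 was at 1.53% in WT, 64.1% in Ring1B -/-, 3.77% in Eed -/-, 1.30% in Ezh2 -/- and 78.002% in Fbxl10 T/T. Of the 28 CpGs with at least 2 Ring1B -/- reads in this pair of windows, 21 were at 50% or more, against 1 of 100 in WT, 1 of 42 in Eed -/- and 1 of 36 in Ezh2 -/-.

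**Figure D2:**
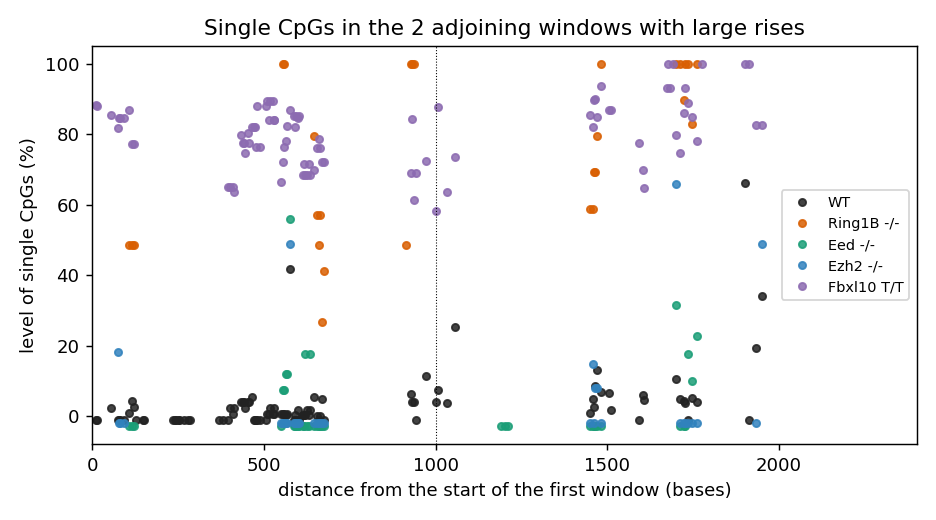
Each point is 1 CpG with at least 2 reads in the 2 adjoining windows on chromosome 5, placed by its distance in bases from the start of the first window (x axis) and its level in percent (y axis), coloured by library. The dotted line parts the windows. The Ring1B -/- points run from 26.7% to 100% with a median of 79.5%, those of Fbxl10 T/T from 58.2% to 100% with a median of 82.2%, and most points of WT, Eed -/- and Ezh2 -/- lie near 0.

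On chromosome 7, the window chr7:4982001-4983000, 7.05 kb from the start of Zfp784, was at 4.65% in WT and 67.7% in Ring1B -/- (35 reads). Its Fbxl10 T/T level was 79.9%, and the PRC2 mutants had too few reads there. The window chr12:72419001-72420000, 8.13 kb from the start of Dact1, a modulator of Wnt signalling, was at 71.2% of 107 reads in Ring1B -/-, while WT stood at 15.1%, Eed -/- at 7.22% and Ezh2 -/- at 7.14%. The window chr2:61649001-61650000 was at 60.4% of 83 reads in Ring1B -/-, while WT stood at 5.32%, Eed -/- at -0.441% and Ezh2 -/- at 8.80%. These 3 windows stood at 15.1% or less in WT and in the PRC2 mutants that were read, and high in Ring1B -/- and Fbxl10 T/T.

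Among the 12 largest rises, Gmds, described below, and 2 others had another order. The window chr10:79198001-79199000, 10.3 kb from the start of the mitochondrial RNA polymerase gene Polrmt, was at 7.90% in WT and 67.4% in Ring1B -/-. It was as high in Eed -/-, at 63.0%, but not in Ezh2 -/-, at 5.92%. The window chr8:112261001-112262000 was at 58.9% in Ring1B -/- and 1.32% in WT, with Eed -/- at 13.02% and Fbxl10 T/T at 0.807%. The window chr2:28765001-28766000, 2.02 kb from the start of the homeobox gene Barhl1, rose from 14.03% to 70.9%, with Eed -/- at 8.96%, Ezh2 -/- at 14.9% and Fbxl10 T/T at 74.8%. Its non-CpG cytosines also read 20% in Ring1B -/- (55 reads). The part of incomplete conversion in that rise was not tested, and it remained 44.4 points or more in every alternative that could be run.

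The remaining large rises were chr12:111425001-111426000 (14.7% to 77.2%), chr18:77099001-77100000 (6.59% to 64.9%), Qrfprl at chr6:65331001-65332000 (2.36% to 63.1%) and Gmds. Fbxl10 T/T stood at 30% or more in 10 of the 12 windows, against 1834 of all 8723. Of the 9 measured in Eed -/-, 8 were under 20%, and so were all 9 of those measured in Ezh2 -/-. Low levels were usual in these 2 libraries. Over all windows with 30 reads, 7538 of 7853 were under 10% in Eed -/- and 7110 of 7444 in Ezh2 -/-.

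**Figure D3:**
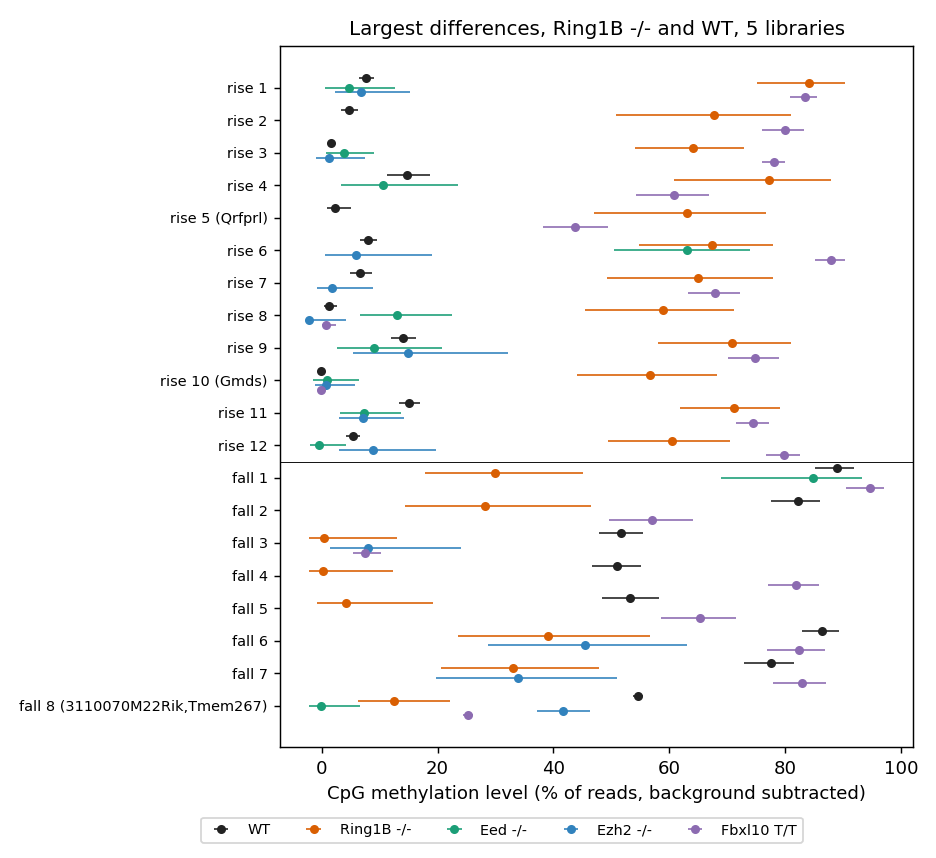
Levels in percent (x axis) of the 12 windows that rose most and the 8 that fell most (y axis, in order of size), in the libraries with at least 30 reads there. Points are background-subtracted levels and bars are 95% Wilson intervals for counting error. Ring1B -/- lies apart from WT in each, and in 10 of the 12 rises Fbxl10 T/T is also high, while among the rises Eed -/- is high in number 6 only.

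Rises were a smaller share of the windows at placed gene starts than of the other windows. A start could be placed in mm9 for 8116 of 26794 genes, so the other windows can hold starts that were not placed. Within 1 kb of a placed start lay 4954 windows. Of these, 24 rose (0.484%), against 85 of 3769 windows with no placed start (2.26%). By CpG density, 3.08% of windows with under 20 listed CpGs rose and 0.291% of those with 60 or more, and the part of density in the difference between starts and other windows was not tested. The 24 rises also differed from the rest in their Fbxl10 T/T level. It was under 10% in 14 of the 24 and in 13 of the other 85, with medians of 2.20% and 64.1%. Over all 8723 windows it was under 10% in 6467, so the 24 lie nearer to that share than the 85 do. The share among all windows at placed starts was not counted. The genes named from here to the end of the falls, other than Gata2, Twist2, Qrfprl, Gmds and Tmem267, were picked after their values were seen.

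Gmds, whose enzyme begins the synthesis of GDP-fucose, was at -0.0915% of 2481 reads in WT at its start and at 56.7% of 64 reads in Ring1B -/-. It stayed at 0.866% in Eed -/-, 0.663% in Ezh2 -/- and -0.160% in Fbxl10 T/T, so only the Ring1B -/- library was high in chr13:32430001-32431000. B3glct, a glucosyltransferase that extends O-linked fucose on thrombospondin repeats, rose in both of its adjoining windows. The window chr5:150480001-150481000 went from -0.416% to 53.9%, and chr5:150481001-150482000 from 0.588% to 45.2%. Eed -/- stood between, at 24.3% and 19.5%, and Ezh2 -/- and Fbxl10 T/T were low in both, at 5.71% or less.

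Clcn4 rose from 0.179% in WT to 48.3% in Ring1B -/- (441 reads) in chr7:7252001-7253000, and Eed -/- was higher still, at 57.8% (488 reads). Ezh2 -/- stood at 11.98% and Fbxl10 T/T at 0.521%. The window held 5.604 times the usual ratio of Ring1B -/- to WT reads, and the part of this in the rise was not tested. Rgcc, a regulator of the cell cycle, was at 55.3% in Ring1B -/- and 9.93% in WT, with Eed -/- at 38.3% and Fbxl10 T/T at 2.84%. Jag1, a Notch ligand, rose from 0.139% to 24.1% over 46 reads, with no more than 3 reads at any CpG. Its most-read CpG stood at -1.66 points, the value of a CpG with no C read in either library. Eed -/- had too few reads to compare.

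Twist2 and Gata2, in contrast, were also high in Fbxl10 T/T. Twist2, a basic helix-loop-helix factor of mesenchyme, was at 2.32% in WT, 36.7% in Ring1B -/- (73 reads), 1.13% in Eed -/-, 5.51% in Ezh2 -/- and 61.3% in Fbxl10 T/T. Gata2, a zinc-finger factor of blood progenitors, was at 14.3% in WT, 48.0% in Ring1B -/- (79 reads), 5.42% in Eed -/-, 14.9% in Ezh2 -/- and 64.4% in Fbxl10 T/T in chr6:88149001-88150000. Fisher's exact test gave adjusted p-values of 1.09e-17 for Twist2 and 8.17e-10 for Gata2. At the single most-read CpG of the Gata2 window the difference was -16.9 points, opposite to the whole window. The neighbouring Gata2 window, chr6:88148001-88149000, did not pass, at 1.19% in WT and -2.69% in Ring1B -/-.

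In 4 of the 24 rises at starts, non-CpG cytosines also read 10% or more in Ring1B -/-. Arhgef1 (0.293% to 29.4%) had 16.7% at non-CpG cytosines, Cyth3 (-0.0164% to 24.2%) 13.8%, Egln3 (2.55% to 26.2%) 13.8% and Uap1 (-0.454% to 19.8%) 10.96%. With its own non-CpG level subtracted, each of these 4 lost its call, at 16.2 points for Arhgef1, 13.9 for Cyth3, 14.7 for Egln3 and 11.9 for Uap1. Over all called windows, 17 of the 109 rises and none of the 50 falls had a non-CpG level of 10% or more, against 229 of all 8723 windows. Without such windows 92 rises were called, and with each window's own non-CpG level subtracted 100 were, of which 95 were among the 109.

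The call itself requires a fall to start from some 20% or more in WT. The median of the windows that fell was 53.9% in WT, 18.5% in Ring1B -/-, 21.3% in Eed -/- (31 windows), 29.7% in Ezh2 -/- (32 windows) and 64.7% in Fbxl10 T/T. Falls took 21 of the 46 windows at 70% or more in WT, where the mean level went from 86.7% to 66.9%. They took 17 of 75 windows at 30 to 70% and 12 of 294 at 10 to 30%. By the summed Eed -/- and Ezh2 -/- reads, 9 of the 27 windows at 70% or more fell, and the mean there went from 86.6% to 75.8%, a smaller shift of -10.8 points against -19.8. The falls were CpG-poor, with 38 of the 50 among the 974 windows with under 20 listed CpGs. In 20 windows measured in all 3 Polycomb mutants, 4 were called lower in Ring1B -/- than in Eed -/- or Ezh2 -/-.

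The largest fall was at chr2:170353001-170354000, 31.1 kb from the start of Pfdn4, a prefoldin subunit. It was at 89.0% in WT (339 reads), 29.98% in Ring1B -/- (44 reads), 84.9% in Eed -/- and 94.7% in Fbxl10 T/T. The window chr8:73269001-73270000 fell from 82.2% to 28.1%, and chr7:52637001-52638000 from 86.4% to 39.03%, where Ezh2 -/- stood at 45.5%. Another 3 ended near 0 or a few percent: chr2:168795001-168796000 (51.7% to 0.422%), chr10:80607001-80608000 (51.0% to 0.244%) and chr4:135081001-135082000 (53.3% to 4.16%). The window chr9:108673001-108674000 fell from 77.5% to 33.0%, and Ezh2 -/- was at 33.9%. This last call was lost when WT was thinned to the Ring1B -/- read number. The window of Tmem267 and 3110070M22Rik, chr13:120277001-120278000, went from 54.6% of 12009 WT reads to 12.5% of 81 reads. That is 0.143 of the usual read ratio, and the part of this in the fall was not tested.

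Falls at placed gene starts were 7 of 4954 windows (0.141%), and all 7 were below 20% in Eed -/-. Over all windows with 30 Eed -/- reads, 7538 of 7853 were under 10% there. Lonp2, a protease of peroxisomes, was at 24.1% in WT and -2.69% in Ring1B -/- (96 reads), with -2.91% in Eed -/- and -2.15% in Ezh2 -/-. Its window held 4.19 times the usual read ratio, and only 2 of its 10 CpGs were at 50% or more in WT. At the most-read CpG the difference was -1.66 points, the value of a CpG with no C read in either library. Sf3b6, a subunit of the spliceosome, was at 24.4% in WT and at the floor of no methylated read in all 3 Polycomb mutants. Aen, a nuclease induced by p53, was at 20.6% in WT and likewise at that floor in the 3 mutants. Foxn4, a forkhead factor of the retina, fell from 23.9% to 0.375%, and Ezh2 -/- was at 24.04%, as in WT. Rbm46, an RNA-binding protein of germ cells, fell from 24.9% to 0.244%.

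Most measured windows at the starts of Polycomb target genes, the class that PRC1 occupies, stayed nearly unmethylated in Ring1B -/-. Windows farther than 1 kb from a placed start were not in the lists. Some of these rose, such as chr2:28765001-28766000, 2.02 kb from Barhl1, and chr17:86084001-86085000 (44.0 points), near the uncalled Six2 window chr17:86087001-86088000. Such nearby windows were not counted. Of 122 homeobox genes of the Polycomb list, 29 were measured in 43 windows, and none was called in either direction, with 40 windows under 10%. At an adjusted p under 0.05 with no minimum size, 3 of the 43 passed, in a test on reads before background subtraction. The median level was 1.61% in WT, 0.244% in Ring1B -/-, -0.683% in Eed -/-, 0.160% in Ezh2 -/- and 56.4% in Fbxl10 T/T, where 38 of the 43 windows were at 20% or more. The median difference from WT was -1.73 points, close to the -1.30 of all windows. With the 1.25% of all windows that rose, under 1 of 43 would be counted, so the absence of a rise here does not set the list apart.

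The most-read homeobox windows show this most firmly. Lmx1b, a LIM homeobox factor, was at 0.0604% in WT (4084 reads), -1.01% in Ring1B -/- (305 reads) and 66.6% in Fbxl10 T/T. Nkx6-1, of pancreas and spinal cord, was at 0.533% in WT, -1.22% in Ring1B -/- (210 reads) and 29.3% in Fbxl10 T/T. Tlx1, needed for the spleen, was at 4.80% in WT, 4.50% in Ring1B -/- (200 reads) and 61.1% in Fbxl10 T/T. In each, Ring1B -/- stood with WT and far below Fbxl10 T/T. Of the differences upward, the widest, picked after seeing them, were at Nkx2-4 (0.583% in WT and 13.1% in Ring1B -/-) and Dlx2 (0.969% and 9.25%). Fisher's exact test on reads before background subtraction gave adjusted p-values of 0.00113 and 0.000583. Non-CpG cytosines in these windows read 3.81% and 7.65% in Ring1B -/-, above the 2.62% subtracted. The part of incomplete conversion in these differences was not tested. Downward, and picked likewise, a second Lmx1b window was at 9.73% in WT and -2.69% in Ring1B -/- (30 reads), and Barhl1 at 11.8% and 2.39%, neither past the test.

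The second Polycomb list, of other developmental regulators, had 26 of 106 genes measured in 35 windows, with 1 rise, the Gata2 window, and no fall. Its median was 1.22% in WT, -0.702% in Ring1B -/- and 56.5% in Fbxl10 T/T. Prdm16, a factor of brown fat, was at 0.617% in WT and 0.653% in Ring1B -/- (215 reads), with 56.5% in Fbxl10 T/T. Gata5 was at 5.45% and 1.56% (169 reads), and 70.9% in Fbxl10 T/T. Sall1 was at -0.116% and 0.499% (161 reads), and low in Fbxl10 T/T too, at 0.156%. The forkhead gene Foxf2, picked after its values were seen, was at 1.91% in WT and 14.1% in Ring1B -/- in its higher window, and 0.0347% in Fbxl10 T/T.

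Of 81 germline genes, which variant PRC1 and DNA methylation silence in ES cells, only 6 were measured, in 6 windows with none called. Their median difference was 4.49 points. Ddx4, an RNA helicase of germ cells, was at 16.9% in WT and 23.0% in Ring1B -/- (60 reads), and Fisher's exact test gave an adjusted p of 0.456. Dazl was at 13.3% and 23.5% (47 reads), with 0.161 from the same exact test. Tdrd5 was at 0.126% and 0.0124% (114 reads).

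Imprinted genes were measured in 14 windows of 12 genes, with none called and a median difference of -1.59 points. Plagl1, methylated on the maternal copy, was at 37.1% in WT and 39.9% in Ring1B -/- (53 reads), with 32.3% in Eed -/-, -2.15% in Ezh2 -/- and 79.6% in Fbxl10 T/T. Zrsr1, another maternally methylated gene, went from 35.1% in WT to 26.5% in Ring1B -/- without passing the test, and Eed -/- stood at 6.78% and Ezh2 -/- at -0.0634%. At both, Ring1B -/- was near the WT level and Ezh2 -/- near 0. Zdbf2 was at 1.95% in WT and 12.2% in Ring1B -/-, below the threshold of size.

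Pluripotency genes were unmethylated in both libraries, with 7 windows of 5 genes at a median of 0.800% in WT and -0.382% in Ring1B -/-. The median of all 8723 windows was about as low, at 0.508% and -0.302%, so these levels cannot check the ES cell label. Klf2 was at -0.800% in Ring1B -/- in 1 window (163 reads) and -0.382% in the other (178 reads), Klf4 was at 2.09% in its most-read window and Sox2 at 4.65%. Pou5f1, Nanog and Zfp42 had no window to compare. Of 25 fibroblast genes only Twist2 was measured, so remaining feeder cells could not be judged from the list. Methylation of a promoter is not a level of expression.

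PRC1 subunits had 22 windows of 13 genes and no call, with a median difference of -2.41 points. The Rnf2 window itself, chr1:153347001-153348000, was at 1.48% in WT (4393 reads) and 5.96% in Ring1B -/- (178 reads). This difference of 4.48 points missed the size threshold (Fisher's exact test on reads before background subtraction, adjusted p = 0.00151). Ezh2 -/- was at 6.39% there and Eed -/- at 1.59%. Ring1, the paralog of Ring1B, was at 2.41% in WT and -2.69% in Ring1B -/- in its start window. Kdm2b, which encodes FBXL10, had 3 windows at 0.820% to 1.89% in WT and all below 0 in Ring1B -/-. PRC2 subunits (9 windows), the DNA methylation machinery (9 windows) and housekeeping genes (18 windows) had no call either. In these, median differences ran from -1.43 points to -0.541 points, and Dnmt3a, a de novo methyltransferase, was at -0.00218% in WT and 0.345% in Ring1B -/- over 406 reads.

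**Figure D4:**
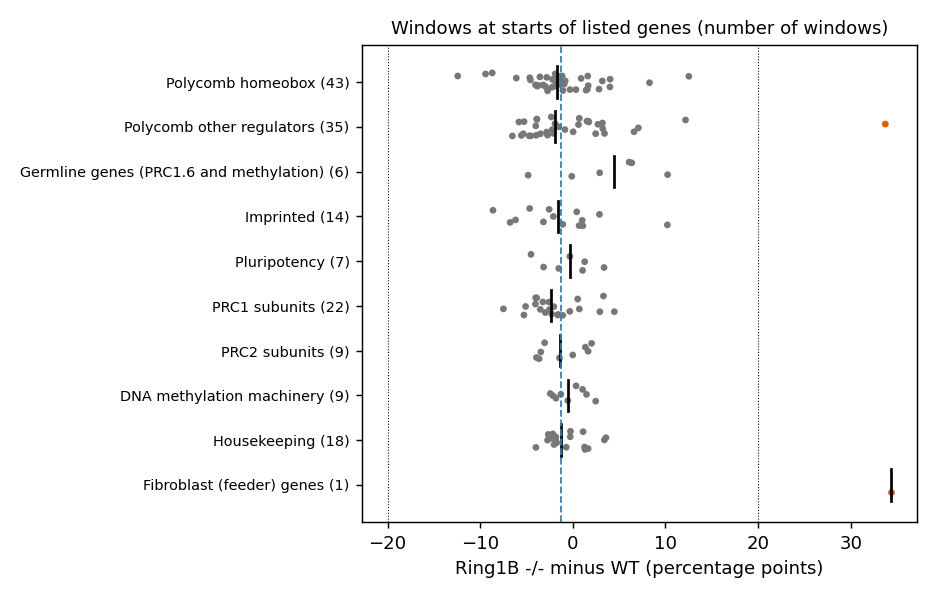
Each point is 1 window at a start of a listed gene (rows, with the number of windows), placed by its Ring1B -/- minus WT difference in percentage points, and orange points were called higher. Black bars are medians of the lists, the dashed line is the median of all 8723 windows (-1.30 points) and the dotted lines are at 20 points either way. Apart from Gata2 and Twist2, no window reaches 20 points, and the widest are at -12.4 and 12.5 points.

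Compared directly with the PRC2 mutants, without the WT library, Ring1B -/- was mostly the higher one. Of 7811 windows measured in Ring1B -/- and Eed -/-, 68 were higher in Ring1B -/- (0.871%) and 4 were lower (0.0512%). Of 7398 windows measured in Ring1B -/- and Ezh2 -/-, 78 were higher (1.05%) and 6 were lower (0.0811%). The 3 libraries had like depth, with medians of 67 to 73 reads per window, and the same culture label. Requiring 60 reads left 26 higher and 0 lower against Eed -/-, and 30 higher and 1 lower against Ezh2 -/-. Of the 73 rises over WT that were measured in both, 37 were called higher than both. The same Ring1B -/- reads had chosen these rises, so this overlap is partly built in and is no separate check.

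The largest difference from each PRC2 mutant was again chr5:144016001-144017000, at 79.6 points over Eed -/- (Fisher's exact test, adjusted p = 7.07e-23) and 77.4 points over Ezh2 -/- (9.12e-22). The window near Dact1 followed, at 64.0 and 64.1 points. Against Eed -/-, chr12:111425001-111426000 differed by 66.7 points, and against Ezh2 -/-, chr18:77099001-77100000 by 63.2 points. The largest difference downward from Eed -/- was the window near Pfdn4, at -54.9 points, and the next was chr11:120830001-120831000, at -36.8 points. A window by Zfp280d was at -23.71 points, with Eed -/- at 21.02% and WT at -0.406%. From Ezh2 -/-, chr8:12386001-12387000 differed by -31.5 points, the Tmem267 window by -29.2 points and chr10:79861001-79862000 by -27.3 points. WT was at 7.92% in the first of these and 0.616% in the last, and neither was called against WT.

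**Figure D5:**
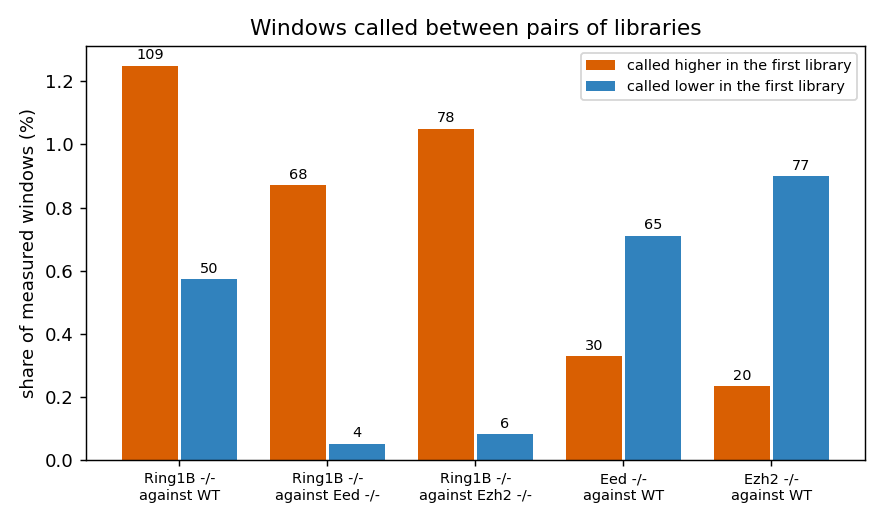
Bars give the share of measured windows (y axis, percent) called higher (orange) or lower (blue) in the first of the 2 libraries named below each pair, with the number of windows above each bar. Ring1B -/- has more higher than lower windows in all 3 of its pairs, while Eed -/- (30 higher, 0.328%, and 65 lower, 0.711%) and Ezh2 -/- (20 higher, 0.234%, and 77 lower, 0.900%) have fewer higher than lower against the same WT library, which these pairs share.

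Windows higher in Ring1B -/- than in a PRC2 mutant were often windows that rose in Fbxl10 T/T over WT, a pair of contrasts that share no library. Over all its own windows, 25.7% were called higher and 2.70% lower in Fbxl10 T/T. Of the 68 windows above Eed -/-, 52 (76.5%) had risen in Fbxl10 T/T, where 20.9% of all windows measured in the 4 libraries did. Those 52 were 3.18% of the Fbxl10 T/T list in these windows. Of the 78 above Ezh2 -/-, 51 (65.4%) had, against 20.5% of all, and these were 3.37% of that list. Thus most of the Ring1B -/- list lay in the Fbxl10 T/T list, and very little of the Fbxl10 T/T list lay in that of Ring1B -/-. The all-window shares are not a like baseline. The median WT level was 10.71% in the 68 windows and 11.004% in the 78, against 0.508% over all 8723 windows. The part of the WT level in this overlap was not tested. Directly, Ring1B -/- was lower than Fbxl10 T/T in 1871 of 8723 windows (21.4%) and higher in 34 (0.390%). The 2 libraries differ in culture label and in depth.

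The called rises were scattered over the genome. When rises no more than 20 kb apart were counted as 1 locus, the 109 windows fell into 102 loci, 96 of them a single window. The widest locus was chr8:123597001-123614000, where 3 of 5 measured windows rose, from 9.65 to 25.8% in WT to 31.9 to 66.9% in Ring1B -/-. Another was chr8:72406001-72414000, 4.29 kb from the start of Cilp2, with 2 of 2. Chromosome 5 held 15 of the rises among 597 windows (2.51%), and chromosome 8, with its larger share of reads, held 12 rises and 11 falls among 611. None of the 67 windows on the X chromosome was called. Without chromosome 8, 97 rises and 39 falls were called.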

How the data were processed

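The members and the gene lists were chosen with earlier results of these data known. Per the file headers, each deposited table gives, for each cytosine, counts of reads showing C and of reads showing C or T. It also gives expected counts scaled by the authors for variants read on the other strand, and a deposited fraction, their ratio. Per the submitters' processing notes, BSMAP 2.74 and mm9 were used, and removal of duplicates is not given in the sources used here. The raw counts were summed over CpGs on the + strand outside CCGG in windows of 1000 bases, on the autosomes and X, and corrected as (m - b)/(1 - b), where b is the non-CpG level of the library. Fisher's exact test was run on the uncorrected counts, adjusted over all windows and checked on simulated data. Gene starts were placed by matching RefSeq promoter sequences (24 matching bases, 30 known letters, 98% identity, 1 place only). Named were the 12 largest rises and 8 largest falls, called windows and the 3 most-read windows of each list, Rnf2, and the 3 largest direct differences each way. Intervals are 95% Wilson intervals. Python 3.11.15, numpy 2.4.6, pandas 2.3.3 and scipy 1.17.1 were used.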

Additional observations from a re-analysis of the deposited data

Results flagged for a closer look

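CpGs inside CCGG, which the comparison left out, read 36.4% in Ring1B -/- and 23.3% in WT over the same windows, before background subtraction. Likewise uncorrected, they read 34.6% in Eed -/-, 33.3% in Ezh2 -/- and 30.7% in Fbxl10 T/T. This signal outside the main measurement was thus above WT in the other 4 libraries. Chromosome 8 had 1.52 times its WT share of reads in Ring1B -/-, 1.43 times in Eed -/- and 1.16 times in Ezh2 -/-. Ring1B -/- and Eed -/- differed in the direct test, with 68 windows higher in Ring1B -/-, and Ring1B -/- and Ezh2 -/- likewise, with 78. All of these come from single libraries.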

How the results depend on the processing

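No paired analysis was possible because each genotype had 1 library. Rises against WT numbered 109 and falls 50. Rises were 437 and falls 312 with CpGs inside CCGG kept, 68 and 10 with at least 10 CpGs, 35 and 12 with 60 reads, 10 and 2 with 100 reads. They were 48 and 24 at CpGs with 5 reads in both libraries, 50 and 24 as means over such CpGs, 68 and 30 with WT thinned, 281 and 88 at a threshold of 10 points, and 65 and 22 at 30 points. With at least 3 CpGs falls were 88. Tighter filters test fewer windows: every earlier rise still tested with 10 CpGs, 60 or 100 reads was kept. The reads of a window that stays do not change under these filters, so this was nearly fixed in advance. With WT thinned, which changes the reads, 65 of the 109 rises and 24 of the 50 falls were kept. At 1 CpG per window, chosen after seeing the data, 35 rose and 5 fell. Of the 109 rises 24 kept their call there, and of the 50 falls 4 did. The sign was the same in 95 of the 109 rises and all 50 falls. Reads of this CpG are part of the sum of its window, so agreement in sign is partly built in. A CpG with no C read in either library gets -1.66 points from background subtraction alone, so its sign says nothing about direction. Jag1, Uap1 and, among the falls, Lonp2 had this value. The Gata2 window became -16.9 points, and of the other rises named Egln3 (-7.07 points) also turned.

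The median difference of -1.30 points was 0.321 without background subtraction, 2.997 with CpGs inside CCGG, -1.68 with the background from C followed by C or T, -1.05 with 10 CpGs, -0.963 with 60 reads and -0.758 with 100 reads. It was -1.66 and -1.95 at CpGs with 5 reads (summed and as means), -1.61 with WT thinned and -0.888 with each window's own non-CpG level. The overall difference of -0.0696 points was 1.51 without background, 4.97 with CpGs inside CCGG, -0.451 with the C or T background, -0.196 with 10 CpGs, -0.146 with 60 and -0.161 with 100 reads, -0.118 at CpGs read in both, -0.549 and -0.966 at CpGs with 5 reads, and 0.131 with reads capped at 100 per CpG. The sign of these small shifts therefore depends on the background and the CpGs used, and the cause was not tested.

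Against Eed -/-, 152 windows were higher and 22 lower with CpGs inside CCGG, and 26 and 0 with 60 reads. Fisher's exact test at an unadjusted p under 0.05, with no minimum of size, gave 485 higher and 305 lower with all windows. Against Ezh2 -/- it was 140 and 13 with CpGs inside CCGG, 30 and 1 with 60 reads, and 2 lower at CpGs read in both. A median of 64 Ring1B -/- reads per window limits what can be seen to large differences.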
